A study of Mus musculus with 10 samples.

Results

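The 10 genes described here belong to the Notch family and were examined in adult mouse somatosensory cortex: the receptors Notch1, Notch2 and Notch3, the ligands Jag1, Jag2, Dll1 and Dlk2, and the Fringe genes Lfng, Mfng and Rfng. The 10 genes were taken by name from the 2 deposited tables of RNA sequencing values, where they held 13 of 29610 rows in the 2.5-month table and 10 of 54532 rows in the 3-month table. Of these, 8 entered as members of the family, and the other two, Dlk2 and Mfng, were chosen for opposite differences in the 2.5-month knockout, so that their values there are a description with no test. Nex_cKO cortex (n = 3 libraries, 2.5 months, genotype Nsd1Nex-cKO) was compared with Nex_Ctrl cortex (n = 3, 2.5 months, 2 libraries Nsd1fl/+ and 1 library Nsd1fl/fl). Camk2a_cKO cortex (n = 2, 3 months, genotype Nsd1Camk2a-cKO) was compared with Camk2a_Ctrl cortex (n = 2, 3 months, both Nsd1fl/+). Nsd1 encodes a methyltransferase of lysine 36 of histone H3, and fl denotes an allele that Cre recombinase can delete. Nex is another name of Neurod6, whose Cre line acts in excitatory neurons soon after their last division, while Camk2a Cre lines act in excitatory neurons later. The labels do not say whether controls carried Cre or whether a library is 1 mouse, and most control libraries carried 1 floxed Nsd1 allele.

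Notch receptors are surface proteins that are cut when a ligand on a neighbouring cell pulls on them. The released intracellular part enters the nucleus, binds the DNA-binding protein RBPJ and switches on genes such as those of the Hes and Hey families. Fringe enzymes add N-acetylglucosamine to O-linked fucose on the extracellular EGF repeats of Notch in the Golgi, which changes how receptors respond to Delta-like and Jagged ligands. In the developing cortex the pathway keeps radial glia as progenitors. In the adult brain it is known from neurons, astrocytes and blood vessels, where Notch3 marks mural cells.

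Values are FPKM, fragment counts scaled to transcript length and to library size. In the 2.5-month table Rfng shared a row with its neighbour Dus1l, Jag2 with Nudt14 and Mir6941, and one of the rows of Notch1 with Mir6996. Rfng and Dus1l lie 4993 bases apart on the minus strand of chromosome 11, and Jag2 and Nudt14 lie 4514 bases apart on the minus strand of chromosome 12, while both microRNA genes lie in introns of their hosts (GENCODE M21, GRCm38). The level of Rfng or Jag2 alone could not be read from the 2.5-month table. Notch1, Notch3 and Dll1 each had 2 rows in that table, which gives no coordinates.

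One library differed in kind from its group. In Nex_cKO replicate 3, Xist, the transcript of the inactive X chromosome, was at 0.0035 FPKM and the Y-linked Ddx3y at 16.2 FPKM, against 33.6 to 46.5 FPKM for Xist and 0 for Ddx3y in the remaining Nex libraries. Its rows without a gene name held 41.55% of its summed FPKM, against 2.33% to 19.41% in the others. Each Nex value was therefore also computed without this library. Nsd1 was at 4.31 and 4.99 FPKM in Camk2a_cKO libraries and at 5.61 and 8.87 FPKM in Camk2a_Ctrl libraries. In the 2.5-month table it shared a row with Prelid1, at 91.0, 118 and 106 FPKM in Nex_cKO libraries and 130, 125 and 141 FPKM in Nex_Ctrl libraries. The tissue label matched the markers of cortical cells: 13 excitatory neuron markers summed to 2564 to 2902 FPKM in Nex_cKO and 3217 to 3464 FPKM in Nex_Ctrl libraries, and 4 choroid plexus markers to 2.66 to 4.81 FPKM in Nex_cKO and 1.22 to 1.44 FPKM in Nex_Ctrl libraries. The excitatory neuron sum was thus lower, and the small choroid plexus sum higher, in every Nex_cKO library than in any Nex_Ctrl library.

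Dlk2 was the member whose cKO libraries lay on opposite sides of their controls in the 2 models, and its RefSeq promoters are printed (GRCm38.p6, plus strand, 250 bases before to 50 bases after each annotated start), with every CpG in capitals. The upstream one is chr17:46297233-46297532 and the downstream one chr17:46297678-46297977.
Dlk2, upstream start: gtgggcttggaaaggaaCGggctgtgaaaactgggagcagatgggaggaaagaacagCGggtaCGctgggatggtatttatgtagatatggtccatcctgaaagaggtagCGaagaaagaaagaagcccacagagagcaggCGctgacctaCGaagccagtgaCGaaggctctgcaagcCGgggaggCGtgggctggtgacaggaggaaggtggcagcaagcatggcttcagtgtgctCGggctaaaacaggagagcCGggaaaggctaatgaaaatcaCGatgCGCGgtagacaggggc
Dlk2, downstream start: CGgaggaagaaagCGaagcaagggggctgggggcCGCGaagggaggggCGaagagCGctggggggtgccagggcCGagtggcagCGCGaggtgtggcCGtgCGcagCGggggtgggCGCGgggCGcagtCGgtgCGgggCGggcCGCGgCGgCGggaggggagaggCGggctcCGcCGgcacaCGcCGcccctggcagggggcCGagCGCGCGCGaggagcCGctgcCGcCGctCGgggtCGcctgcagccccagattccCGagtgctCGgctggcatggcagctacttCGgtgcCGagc
The upstream promoter held 14 CpG and the downstream one 41, against a median of 7 over 32851 promoters, of which 36.3% and 3.46% held at least as many. The table values of Dlk2 do not tell transcripts from the 2 starts apart. Of the 10 genes, 9 had a promoter in the RefSeq table (11 promoters), and Mfng had none. Their CpG counts ran from 14 to 63, the highest at Jag2, a count that 0.0304% of promoters reach.

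The core letters of the RBPJ motif, TGGGAA, were searched on both strands. They occurred in 25.6% of all promoters and, among the 9 genes, in that of Lfng (chr5:140607091-140607390, plus strand), which is shown with the motif in capitals on either strand.
Lfng: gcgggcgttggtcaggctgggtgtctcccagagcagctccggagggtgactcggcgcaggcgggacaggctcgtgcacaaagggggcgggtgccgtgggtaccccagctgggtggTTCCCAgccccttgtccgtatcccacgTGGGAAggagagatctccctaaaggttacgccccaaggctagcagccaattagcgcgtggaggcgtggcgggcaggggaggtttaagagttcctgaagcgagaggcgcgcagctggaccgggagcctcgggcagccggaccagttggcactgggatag
Lfng, lunatic fringe, is known as a Notch target in the embryo. One match began 135 bases before the annotated start on the minus strand (TTCCCA as printed) and the other 108 bases before it on the plus strand. A match of 6 letters is a description and not a binding site.

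**Figure D1:**
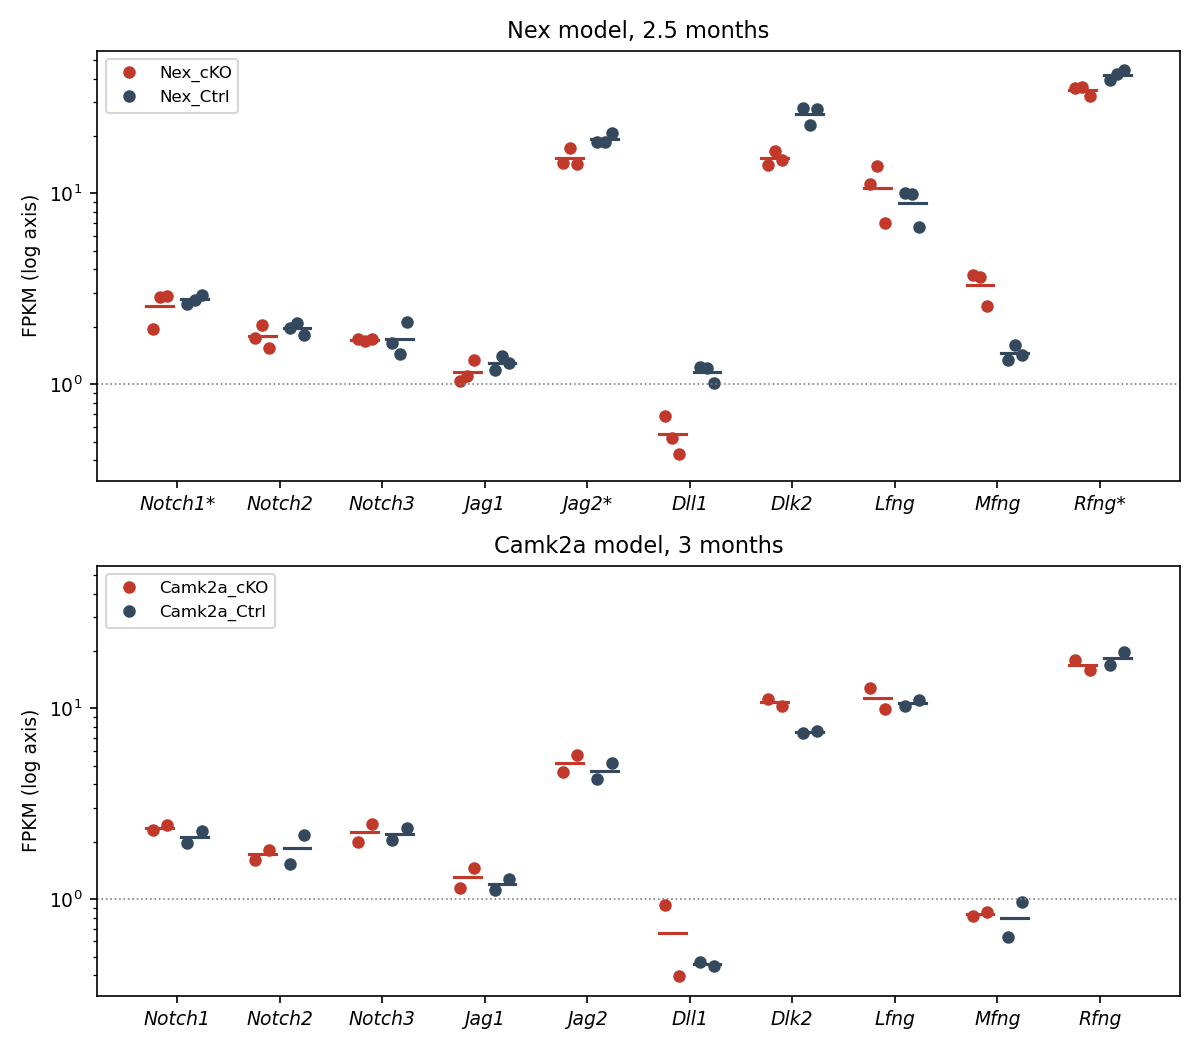
FPKM of the 10 genes by library on a log axis, with cKO libraries left of control libraries and a bar at each group mean. An asterisk marks a row shared with another gene, and the dotted line FPKM 1. In the Nex model Dlk2 lies lower and Mfng higher in every cKO library than in any control library.

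Levels differed widely within the family. In Nex_cKO libraries the Rfng row averaged 34.8 ± 2.10 FPKM, the Jag2 row 15.3 ± 1.67 FPKM, Dlk2 15.3 ± 1.34 FPKM and Lfng 10.7 ± 3.53 FPKM (SD, n = 3), followed by Mfng at 3.32 and the larger Notch1 row at 2.57 FPKM. In Nex_Ctrl libraries the Rfng row averaged 41.9 ± 2.49 FPKM, Dlk2 26.2 ± 2.88 FPKM, the Jag2 row 19.3 ± 1.32 FPKM and Lfng 8.90 ± 1.91 FPKM (SD, n = 3), followed by the larger Notch1 row at 2.79 FPKM. Each of those 5 control levels was apart from the next lower one in all libraries. Below them Notch2, Notch3, Mfng, Jag1 and Dll1 followed at 1.97, 1.73, 1.46, 1.29 and 1.15 FPKM in Nex_Ctrl, each overlapping the next. In Nex_cKO the Jag2 row and Dlk2 overlapped, and so did Mfng with Notch1, Notch1 with Notch2, and Notch2 with Notch3.

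In the 3-month table, where each gene has its own row, Rfng was also the highest, with 16.9 ± 1.55 FPKM in Camk2a_cKO and 18.3 ± 2.12 FPKM in Camk2a_Ctrl libraries (SD, n = 2 each). Lfng had 11.3 ± 2.01 FPKM in Camk2a_cKO and 10.7 ± 0.568 FPKM in Camk2a_Ctrl libraries, and Dlk2 10.8 ± 0.629 FPKM in Camk2a_cKO and 7.49 ± 0.134 FPKM in Camk2a_Ctrl libraries. Mfng and Dll1 were the lowest, both under FPKM 1 in all 4 libraries. The 2 tables were normalized apart, so levels are ordered here only within each table.

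The question asked of each model is which of these transcripts differ in cortex when Nsd1 is deleted in excitatory neurons. In the Nex model 1 of the 8 family members that were not chosen on this comparison was past the threshold, the Delta-like ligand Dll1, at a lower level in Nex_cKO cortex. Its row reached FPKM 1, the level needed to enter the test, in control libraries alone, and the call was lost when any 1 library was left out, with median ratio rescaling and with the replicate block. None of the 3 receptors and neither Jag1 nor Lfng passed, and the rows holding Jag2 and Rfng were lower in all Nex_cKO libraries but missed the threshold. In the Camk2a model none of the 8 members tested passed. Calls are limma tests on log2(FPKM + 1) with Benjamini-Hochberg adjusted p under 0.05 over all rows tested. The background share of rows called lower was 4.06% and higher 4.47% in the Nex model (8.53% in all, 1069 of 12528), and 0% in the Camk2a model. Given how Dll1 entered the test, its 1 call among 8 members is a description.

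Among the receptors, the larger Notch1 row had 1.95, 2.87 and 2.90 FPKM in Nex_cKO libraries, against 2.63, 2.78 and 2.95 FPKM in Nex_Ctrl libraries. The second Notch1 row had 1.52, 1.90 and 1.05 FPKM in Nex_cKO libraries, against 2.16, 1.11 and 1.96 FPKM in Nex_Ctrl libraries. The groups overlapped in both rows. The difference of the larger row was -0.094 on the log2 scale (95% interval -0.39 to 0.21, limma adjusted p = 0.716), and that of the second -0.13 (interval -0.56 to 0.29, adjusted p = 0.717).

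Notch2, which in the adult brain is known from glia, had 1.75, 2.05 and 1.55 FPKM in Nex_cKO libraries, against 1.98, 2.10 and 1.82 FPKM in Nex_Ctrl libraries. The groups overlapped, and the log2 difference was -0.095 (interval -0.35 to 0.16, adjusted p = 0.666). Notch3 had 1.73, 1.69 and 1.72 FPKM in Nex_cKO libraries, against 1.65, 1.43 and 2.12 FPKM in Nex_Ctrl libraries, in its higher row. The Nex_cKO values lay within the range of the controls (log2 difference -0.0035, interval -0.28 to 0.28, adjusted p = 0.991). The lower Notch3 row had 1.01, 1.38 and 2.05 FPKM in Nex_cKO libraries, against 0.951, 1.22 and 0.889 FPKM in Nex_Ctrl libraries, its highest value in the Nex_cKO library that stood apart. Summing both rows gave a log2 difference of 0.15 (adjusted p = 0.485). The 13 markers of pericytes and vascular smooth muscle, the cells known for Notch3, summed to 50.4 to 63.6 FPKM in Nex_cKO and 58.4 to 70.6 FPKM in Nex_Ctrl libraries, and 1 of the 10 tested was called (Des, higher). Des reached FPKM 1 in 3 of 3 Nex_cKO and 0 of 3 Nex_Ctrl libraries. It thus entered the test through the group in which it was high, and its call is a description.

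Among the canonical ligands, Jag1 had 1.03, 1.10 and 1.34 FPKM in Nex_cKO libraries, against 1.19, 1.40 and 1.29 FPKM in Nex_Ctrl libraries. The groups overlapped, with a log2 difference of -0.090 (interval -0.35 to 0.17, adjusted p = 0.692). The row of Jag2, Mir6941 and Nudt14 had 14.4, 17.2 and 14.3 FPKM in Nex_cKO libraries, against 18.6, 18.5 and 20.8 FPKM in Nex_Ctrl libraries. All Nex_cKO libraries were below all Nex_Ctrl libraries, a log2 difference of -0.32 (SE 0.093) that missed the threshold (adjusted p = 0.0714) and passed it without Nex_cKO replicate 2 (log2 difference -0.40, adjusted p = 0.024). How this divides between Jag2 and Nudt14 cannot be read from the row.

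Dll1 (ENSMUSG00000014773, chromosome 17, 15367354 to 15376872, minus strand) encodes a Delta-like ligand that newborn neurons present to progenitors in the embryo. Its higher row had 0.680, 0.525 and 0.432 FPKM in Nex_cKO libraries, against 1.23, 1.22 and 1.01 FPKM in Nex_Ctrl libraries. It was lower in all 3 Nex_cKO libraries, at 0.473 times the control mean. The row reached FPKM 1 in 3 of 3 control libraries and 0 of 3 Nex_cKO libraries, so it entered the test through the group in which it was high, and its log2 difference of -0.48 (SE 0.12, limma adjusted p = 0.0473) is to be read with that selection. The call was lost when any 1 of the 6 libraries was left out (adjusted p = 0.0748 to 0.172, of which 0.0822 without Nex_cKO replicate 3), with median ratio rescaling (0.0588) and with a replicate block (0.0944). The size of the difference depended on the scale, at -0.97 with a pseudocount of 0.1 and -0.82 with quantile normalization. The lower Dll1 row had 0.413, 0.174 and 0.248 FPKM in Nex_cKO libraries, against 0.188, 0.241 and 0.00061 FPKM in Nex_Ctrl libraries, and the sum of both rows differed by -0.33 (adjusted p = 0.199).

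Lfng, the Fringe gene whose promoter is printed above, had 11.2, 14.0 and 6.97 FPKM in Nex_cKO libraries, against 10.03, 9.98 and 6.69 FPKM in Nex_Ctrl libraries. The lowest library of either group was about as low as the other's, and the groups overlapped (log2 difference 0.21, interval -0.30 to 0.73, adjusted p = 0.62). The overlap came from Nex_cKO replicate 3 alone, the library that stood apart, at 6.97 FPKM. The remaining Nex_cKO libraries were above all Nex_Ctrl libraries. The row of Rfng, radical fringe, and Dus1l had 35.9, 36.1 and 32.4 FPKM in Nex_cKO libraries, against 39.3, 42.2 and 44.2 FPKM in Nex_Ctrl libraries. The groups did not overlap, and the log2 difference of -0.26 (SE 0.076) missed the threshold (adjusted p = 0.0733). Of the 8 members, 3 rows (those of Dll1, Jag2 and Rfng) were lower in Nex_cKO libraries without overlap and 0 were higher, where 18.9% of all tested rows were lower and 11.5% higher without overlap (30.4% in all). Dll1 passed the limit of FPKM 1 in control libraries alone, so its lack of overlap followed from how it entered the test. The rows of Jag2 and Rfng are shared with other genes. The count is therefore a description. The median log2 difference of the 8 members was -0.095, against -0.043 over all rows.

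Dlk2 and Mfng, chosen on this comparison, had the widest differences of the 10 on the log2(FPKM + 1) scale, while as a ratio of means Dll1 differed more than Dlk2 (2.12 times and 1.72 times as high in Nex_Ctrl as in Nex_cKO libraries). Dlk2 (ENSMUSG00000047428, chromosome 17, 46297421 to 46303271, plus strand) encodes a non-canonical ligand, a relative of Dlk1 that lacks the domain by which Delta and Jagged proteins activate Notch. It had 14.2, 16.8 and 14.9 FPKM in Nex_cKO libraries, against 28.1, 22.9 and 27.6 FPKM in Nex_Ctrl libraries. Every Nex_cKO value was below every Nex_Ctrl value, with a log2 difference of -0.74 (SE 0.099), which was -0.72 without Nex_cKO replicate 3.

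Mfng (ENSMUSG00000018169, chromosome 15, 78755882 to 78773475, minus strand), manic fringe, had 3.75, 3.64 and 2.57 FPKM in Nex_cKO libraries, against 1.34, 1.61 and 1.43 FPKM in Nex_Ctrl libraries. Every Nex_cKO value was above every Nex_Ctrl value, and the Nex_cKO mean was 2.27 times the control mean, with a log2 difference of 0.80 (SE 0.13) that was 0.93 without Nex_cKO replicate 3. Among the Fringe genes the 2.5-month cKO values thus stood above those of controls for Mfng and below for the row with Rfng. For Lfng they overlapped, through Nex_cKO replicate 3 alone.

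**Figure D2:**
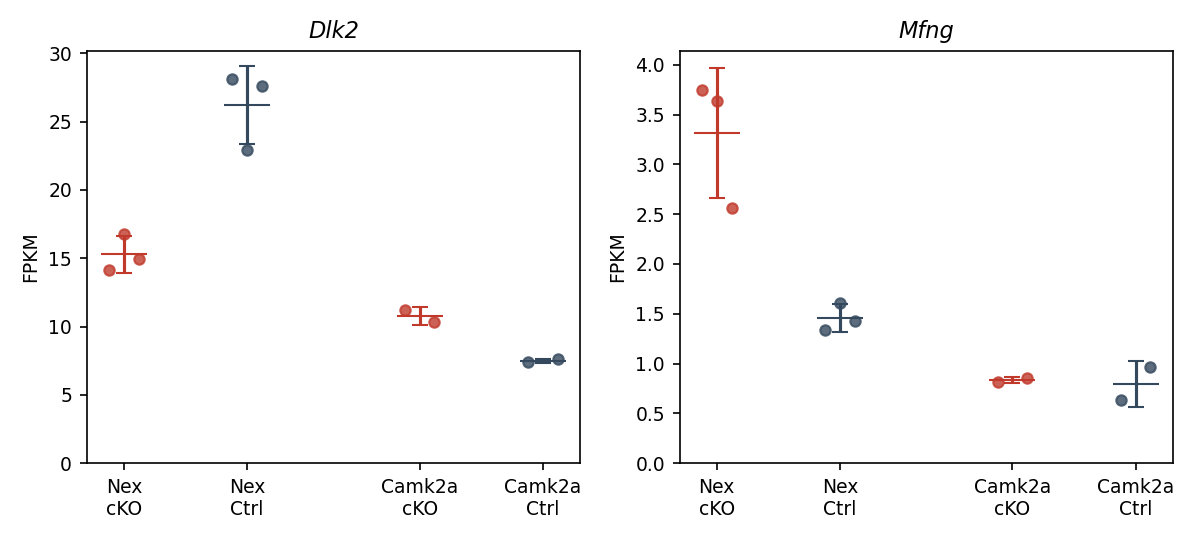
FPKM of Dlk2 and Mfng in each library of the 2 models, with the group mean and SD (n = 3 in Nex groups, n = 2 in Camk2a groups) on axes that start at 0. Dlk2 is lower in Nex_cKO and higher in Camk2a_cKO libraries than in their controls. Mfng is higher in Nex_cKO libraries, and its Camk2a values overlap.

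In the Camk2a model Dlk2 had 11.2 and 10.3 FPKM in Camk2a_cKO libraries, against 7.40 and 7.59 FPKM in Camk2a_Ctrl libraries, from 422 and 367 recovered reads in Camk2a_cKO against 269 and 317 in Camk2a_Ctrl libraries. Both Camk2a_cKO libraries were above both Camk2a_Ctrl libraries, the opposite side from the Nex model. The log2 difference was 0.47 (SE 0.10, interval 0.23 to 0.71), which missed the threshold after adjustment over all rows (limma adjusted p = 0.471, and 0.356 to 1 in the alternatives tried). It kept its sign when any 1 library was left out (0.42 to 0.52). Whether the difference of Dlk2 differs between the models was not tested, because the tables were normalized apart, and age, driver and table differ together. The sex-linked transcripts differ between the models as well: Ddx3y was at 11.1 and 11.7 FPKM in Camk2a_cKO and 12.4 and 11.0 FPKM in Camk2a_Ctrl libraries, with Xist at no more than 0.00939 FPKM, whereas among Nex libraries Ddx3y was above 0 in Nex_cKO replicate 3 alone.

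Mfng had 0.811 and 0.859 FPKM in Camk2a_cKO libraries, against 0.635 and 0.962 FPKM in Camk2a_Ctrl libraries, from 41 and 41 reads in Camk2a_cKO against 31 and 54 in Camk2a_Ctrl libraries. The groups overlapped, and the gene did not reach the FPKM 1 that the test required. With no filter on low values its log2 difference was 0.035 (limma adjusted p = 0.97). Dll1 had 0.932 and 0.395 FPKM in Camk2a_cKO libraries, against 0.468 and 0.444 FPKM in Camk2a_Ctrl libraries, and was below the same limit. With no filter its log2 difference was 0.17 (adjusted p = 0.889).

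The other tested members overlapped between groups in the Camk2a model, apart from Notch1, which had 2.30 and 2.43 FPKM in Camk2a_cKO libraries, against 1.97 and 2.26 FPKM in Camk2a_Ctrl libraries (log2 difference 0.11, interval -0.20 to 0.43, adjusted p = 0.91). Notch1 and Dlk2 were thus 2 of 8 members higher in Camk2a_cKO libraries without overlap, where 16.2% of all tested rows were, and 0 were lower, where 21.1% were. Jag2 on its own had 4.64 and 5.71 FPKM in Camk2a_cKO libraries, against 4.27 and 5.15 FPKM in Camk2a_Ctrl libraries (log2 difference 0.11, adjusted p = 0.916). Nudt14, its partner in the 2.5-month row, had 1.95 and 1.95 FPKM in Camk2a_cKO libraries, against 2.34 and 2.74 FPKM in Camk2a_Ctrl libraries. Rfng had 18.03 and 15.8 FPKM in Camk2a_cKO libraries, against 16.8 and 19.8 FPKM in Camk2a_Ctrl libraries (log2 difference -0.10, adjusted p = 0.91). Its partner Dus1l had 5.04 and 4.75 FPKM in Camk2a_cKO libraries, against 4.81 and 4.70 FPKM in Camk2a_Ctrl libraries. Notch2, Notch3, Jag1 and Lfng had log2 differences between -0.063 and 0.066, with adjusted p between 0.953 and 0.992. Over all 12919 rows limma called 0 in this model, with 899 at an unadjusted p under 0.05 and a smallest adjusted p of 0.0632. With 2 libraries a group, the 95% intervals of the 7 tested members other than Dlk2 together spanned -0.46 to 0.45 on the log2 scale. Differences inside the interval of a member remain possible for it. The intervals are not adjusted over rows and do not give the smallest difference that would be called. Dlk2, at 0.47, was not called either.

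**Figure D3:**
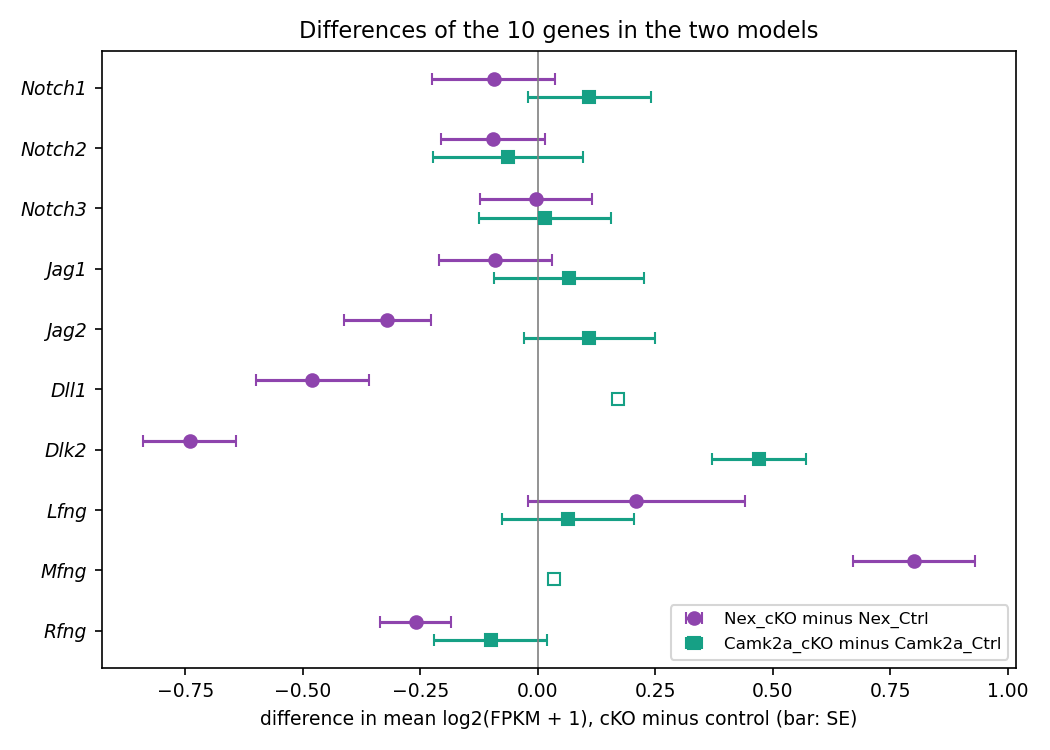
Difference in mean log2(FPKM + 1) between cKO and control libraries for the 10 genes, with its SE, shown as circles for the Nex and squares for the Camk2a model. Open squares are genes under the limit of FPKM 1. In the Nex model Dlk2 lies at -0.74 and Mfng at 0.80. In the Camk2a model they lie at 0.47 and 0.035.

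The rest of the pathway was read from 69 further genes in role-based lists. In the Nex model 63 of them were tested, 1 was lower and 0 were higher (1.59%, against 8.53% of all rows), with a median log2 difference of -0.081, against -0.043 over all rows. Groups did not overlap for 19 of the 63, where 30.4% of all tested rows did not. The one called was Fbxw7, the ubiquitin ligase subunit that marks the cleaved Notch fragment for destruction, with 45.0 FPKM in Nex_cKO and 57.6 FPKM in Nex_Ctrl libraries (log2 change -0.35, limma adjusted p = 0.0447). Its call was lost without any one library other than Nex_cKO replicate 3 (adjusted p = 0.0559 to 0.153) and kept without that library (0.0475). It was also lost with the replicate block (0.0747), median ratio rescaling (0.0615), quantile normalization (0.114), no intensity trend (0.0725), no filter (0.0584), a filter of FPKM 5 (0.0564) and summed rows (0.092). In the Camk2a model 61 were tested and 0 called, with 24 whose groups did not overlap (37.3% of all rows did not), and a median of -0.0092, against -0.009 over all rows. Fbxw7 differed there by -0.074 (adjusted p = 0.911).

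Of the receptors and ligands outside the 10, the endothelial receptor Notch4 had 0.942 FPKM in Nex_cKO and 1.25 FPKM in Nex_Ctrl libraries (log2 difference -0.22, adjusted p = 0.388). Dner, a neuronal Notch ligand with EGF repeats, had 41.8 FPKM in Nex_cKO and 38.5 FPKM in Nex_Ctrl libraries (0.12, adjusted p = 0.366). Dll3, Dll4 and Dlk1 did not reach the limit of FPKM 1 in enough libraries. Their means were 0.259, 0.638 and 0.0172 FPKM in Nex_cKO and 0.623, 1.03 and 0.0846 FPKM in Nex_Ctrl libraries, so that Dlk1, the relative of Dlk2, was near 0 in both groups. Dll3 and Dll4 were lower in all Nex_cKO libraries without overlap, as were 18.9% of all tested rows, and Dlk1 overlapped. None of these low values was tested. In the Camk2a model Notch4 had a log2 difference of -0.17 and Dner of -0.018 (adjusted p = 0.897 and 0.989).

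Of the other enzymes that glycosylate EGF repeats, 0 of 7 tested passed in either model, and Poglut3, an O-glucosyltransferase, had the smallest p (log2 difference 0.16 in the Nex and 0.13 in the Camk2a model, adjusted p = 0.438 and 0.873). Of 10 sheddase, furin and gamma-secretase genes 0 passed. Psen2, a presenilin, the catalytic subunit, had 8.84 FPKM in Nex_cKO and 6.91 FPKM in Nex_Ctrl libraries (log2 difference 0.31, adjusted p = 0.116), and Psenen, another subunit, differed by 0.21 in the Camk2a model (adjusted p = 0.86). Of 19 genes of the RBPJ complex and its cofactors 0 passed. Kat2a, a histone acetyltransferase, had a Nex log2 difference of -0.27 (adjusted p = 0.0541, and 0.0493 without Nex_cKO replicate 2). Rbpj itself had 2.94 FPKM in Camk2a_cKO and 4.03 FPKM in Camk2a_Ctrl libraries (log2 difference -0.35, adjusted p = 0.59).

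Of the target genes 0 of 9 tested passed in the Nex model and 0 of 8 in the Camk2a model. Hes5, a repressor of neuronal genes that Notch induces in progenitors and glia, had 9.08 FPKM in Nex_cKO and 11.9 FPKM in Nex_Ctrl libraries (log2 difference -0.41, adjusted p = 0.293), which passed without Nex_cKO replicate 2 (log2 difference -0.68, adjusted p = 0.0207) and was -0.17 without Nex_cKO replicate 3. Hes1, a related repressor, had 3.91 FPKM in Camk2a_cKO and 4.96 FPKM in Camk2a_Ctrl libraries (log2 difference -0.29, adjusted p = 0.759). A p that misses the threshold does not show that these genes were unaltered.

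**Figure D4:**
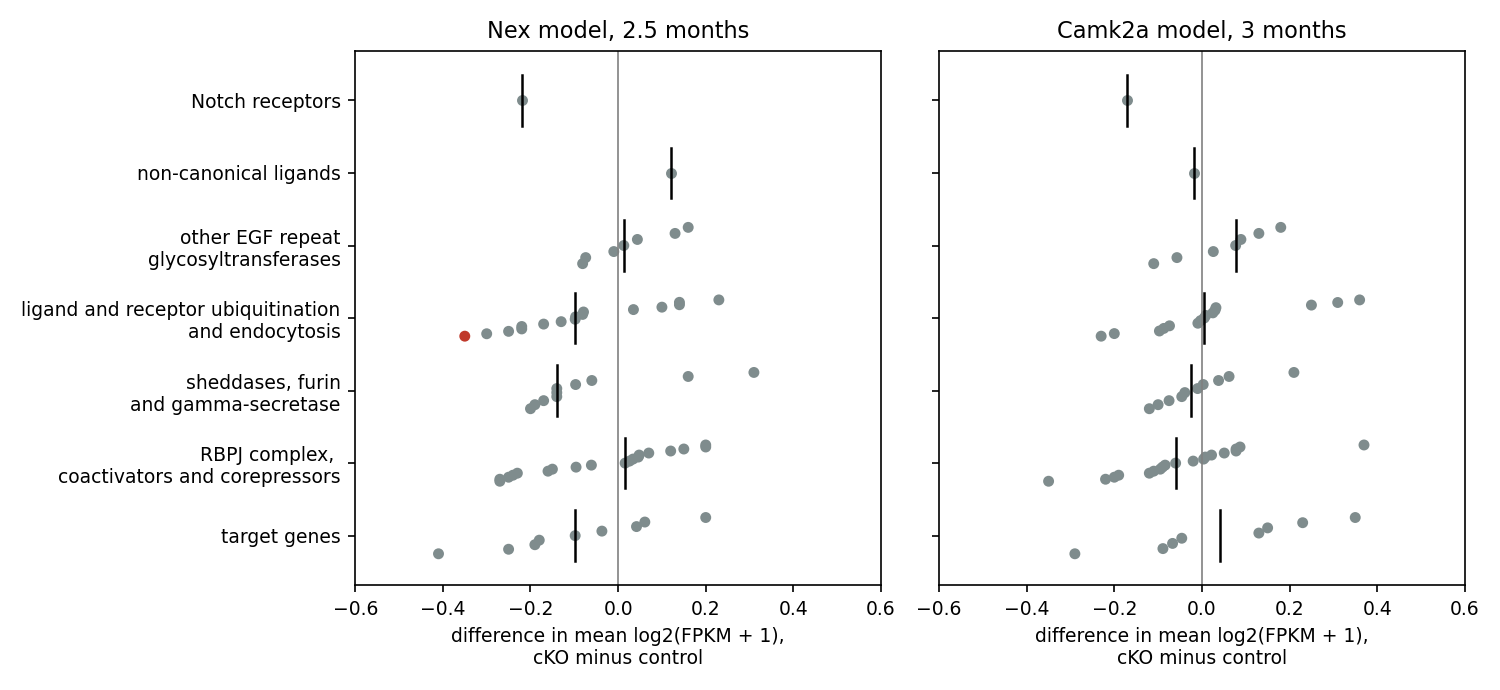
Difference in mean log2(FPKM + 1), cKO minus control, for each tested pathway gene outside the 10 members, by list, with the Nex model on the left and the Camk2a model on the right. Black bars are list medians. The 1 red point is Fbxw7 (-0.35), the only gene here with adjusted p under 0.05.

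Some cell type markers differed in the same libraries, while the sums of several lists overlapped between groups. Over all tested rows of the Nex model 4.47% were called higher and 4.06% lower. In these bulk samples fewer cells of a type and less RNA per cell cannot be told apart. The 15 endothelial markers, of cells known for Notch4, Dll4 and Jag1, summed to 123 to 138 FPKM in Nex_cKO and 140 to 169 FPKM in Nex_Ctrl libraries (Esam, in a joined row, higher and Cldn5 and Egfl7 lower, of 15 tested), and to 85.1 to 98 FPKM in Camk2a_cKO and 73.3 to 77 FPKM in Camk2a_Ctrl libraries (0 of 14 called). Blood markers (haemoglobins and Alas2) summed to 50.7 to 95.1 FPKM in Nex_cKO and 124 to 272 FPKM in Nex_Ctrl libraries (both tested rows, Hba-a1 with Hba-a2 and Hbb-b1 with Hbb-bs, called lower), and to 124 to 159 FPKM in Camk2a_cKO and 80.4 to 101 FPKM in Camk2a_Ctrl libraries (0 of 5 called). The Esam row, shared with Msantd2 and Vsig2, averaged 30.1 FPKM in Nex_cKO and 20.8 FPKM in Nex_Ctrl libraries. The Nex endothelial sum is therefore no measure of endothelial markers alone. Both the endothelial and the blood sum were lower in Nex_cKO and higher in Camk2a_cKO libraries, as was Dlk2. Their part in the values of Dlk2 was not tested.

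Beside the higher Mfng in Nex_cKO libraries, the 11 microglial markers summed to 295 to 335 FPKM in Nex_cKO and 243 to 297 FPKM in Nex_Ctrl libraries, with 2 higher and 0 lower (Trem2 and Ctss). The 6 markers of oligodendrocyte precursors summed to 65.7 to 99.9 FPKM in Nex_cKO and 95.6 to 101 FPKM in Nex_Ctrl libraries, with Cspg4 higher and Gpr17 lower. The 12 astrocyte markers summed to 913 to 970 FPKM in Nex_cKO and 854 to 932 FPKM in Nex_Ctrl libraries, with Gfap higher. Of 13 excitatory neuron markers 1 was higher (Neurod2) and 6 lower (Neurod6, Tbr1, Rorb, Fezf2, Bcl11b and Foxp2) in Nex_cKO. The background shares were 4.47% higher and 4.06% lower. Neurod6 is also the gene whose Cre line was used in this model, and the part of that line in its value was not tested. Of the 10 GABAergic markers 1 was higher, Gad2, and the sums were 533 to 840 FPKM in Nex_cKO and 732 to 851 FPKM in Nex_Ctrl libraries. The 5 meningeal markers summed to 256 to 290 FPKM in Nex_cKO and 294 to 302 FPKM in Nex_Ctrl libraries (0 of 4 called). Most of these sums came from the row that Col1a1 shares with Ppp1r9b, at a mean of 267 FPKM in Nex_cKO and 284 FPKM in Nex_Ctrl libraries. The sums are therefore no measure of meningeal markers alone. Of the markers with a row, 0 were at 0 in all libraries of a model. Their part in the value of Mfng was not tested.

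The genes whose pattern over the 10 libraries was most like that of Dlk2, with each value taken from the mean of its table, were Sppl2b, Atg4d and Robo4 (Pearson r = 0.96, 0.96 and 0.95, among 2577 candidate genes). Sppl2b encodes an intramembrane protease, Atg4d a protease of autophagy and Robo4 a receptor of endothelial cells. Robo4 averaged 1.05 FPKM in Nex_cKO and 1.73 FPKM in Nex_Ctrl libraries, and 1.37 FPKM in Camk2a_cKO and 1.04 FPKM in Camk2a_Ctrl libraries. Most like Mfng were Cspg4, Inpp5d and Rspo1 (r = 0.97, 0.96 and 0.96, among 2591). Cspg4 encodes a proteoglycan of oligodendrocyte precursors and pericytes, Inpp5d a phosphatase of blood cells and microglia, and Rspo1 a secreted enhancer of Wnt signalling. Cspg4 averaged 4.84 FPKM in Nex_cKO and 2.82 FPKM in Nex_Ctrl libraries, and Inpp5d 4.61 FPKM in Nex_cKO and 2.98 FPKM in Nex_Ctrl libraries. These correlations describe libraries that share the difference between groups by which Dlk2 and Mfng were chosen.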

How the data were processed

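Per the labels' protocols, cortical RNA was isolated with RNAiso Plus, and NEBNext Ultra II kits were used for the libraries. The authors deposited FPKM values in 2 tables. Cufflinks 2.2.1, STAR, DESeq2 and cutadapt, and the builds GRCm38 and mm10, are listed in the submitters' processing notes with no role or order. Rows with no gene name (4463 of 29610 in the 2.5-month table) were not tested, and of rows with one name the row of highest mean was kept (1864 and 105 rows left out). In the 3-month table FPKM times the deposited gene length was a whole multiple of 1 step per library for 100% of values (tolerance 0.1), which gave 16901717 to 20074933 reads per library, and its median ratio factors were 1.003 in each library. The depth of the 2.5-month libraries is unknown. Gene positions come from the 3-month table, whose build is GRCm38.

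The 2 tables were fitted separately with limma 3.58.1 in R 4.3.3 (eBayes with an intensity trend) on log2(FPKM + 1), for rows that reached FPKM 1 in 3 or more Nex libraries (12528 rows) or 2 or more Camk2a libraries (12919 rows). A log2 difference on this scale understates the change of genes with low FPKM. P-values are two-sided, adjusted by Benjamini-Hochberg over all rows tested (threshold 0.05), and measure only the spread between these samples, which may be technical. Sequences are from RefSeq (GRCm38.p6). The members and lists were chosen with earlier results of these data known. All members were named, with, per pathway list, up to 4 called genes or the one of smallest p, and the 3 genes most like Dlk2 and Mfng; the remaining receptors and ligands were named to complete the family, and single markers where called. Of the 12 marker lists, 2 are not reported here. The fit was tested on simulated data. Alternatives were a pseudocount of 0.1, dropping the filter or raising it to FPKM 5, median ratio rescaling, quantile normalization, no trend, robust moderation, a replicate block, summed rows and leaving out each library.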

Additional observations from a re-analysis of the deposited data

Results flagged for a closer look

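Dlk2 lay on opposite sides of its controls in the 2 models: all Nex_cKO libraries were below all Nex_Ctrl libraries (log2 difference -0.74), and both Camk2a_cKO libraries were above both Camk2a_Ctrl libraries (log2 difference 0.47). Dlk2 was chosen on the Nex values. Dtx3, a Deltex family ubiquitin ligase named for its p in the Camk2a model, did the same, with 85.1 FPKM in Nex_cKO and 99.0 FPKM in Nex_Ctrl libraries (log2 difference -0.22, limma adjusted p = 0.155) and 40.1 FPKM in Camk2a_cKO and 32.2 FPKM in Camk2a_Ctrl libraries (log2 difference 0.31, adjusted p = 0.67). Only members and genes named by their p were searched for this. Other pathway genes also lay on opposite sides without overlap, such as Ctbp2 (log2 difference -0.24 in the Nex and 0.087 in the Camk2a model) and Crebbp (0.20 and -0.11). Groups did not overlap in 30.4% of all tested rows in the Nex and 37.3% in the Camk2a model. The share of rows on opposite sides in both was not counted. For none of these genes was the difference between the models tested.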

How the results depend on the processing

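Among alternative values for single genes, 414 kept their sign and their side of the threshold, 22 lost a call (all of Dll1 or Fbxw7), 3 gained one and 18 turned sign, all of genes that were not called. Dlk2 and Mfng have no test in the Nex model and were counted as kept there if they stayed within the larger group SD. Some alternatives could hardly move a value. The rescaling factor was 1.003 in every Camk2a library, and each member has a single row to sum in the 3-month table. In the Nex model Notch3 was at 0.02 with median ratio rescaling, 0.0004 with a pseudocount of 0.1, 0.15 with both forms of summed rows (the one over all rows that hold the name was added after seeing the data) and -0.084 to 0.096 with a library left out, and the larger Notch1 row at -0.16 to 0.039. In the Camk2a model Notch3 was at -0.021 with quantile normalization. With a library left out there, the ranges were -0.093 to 0.12 for Notch3, -0.068 to 0.032 for Dner, -0.032 to 0.16 for Jag1, -0.014 to 0.24 for Jag2, -0.10 to 0.23 for Lfng, -0.23 to 0.10 for Notch2, -0.0029 to 0.41 for Psenen and -0.22 to 0.0074 for Rfng. Mfng was at 1.12 with a pseudocount of 0.1 in the Nex model.

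Over all rows the Nex model gave 197 higher rows with a filter of FPKM 5 and 443 to 635 with a library left out, and 160 to 685 lower rows with a library left out (219 without Nex_cKO replicate 1, and 160, 205 and 161 without the Nex_Ctrl libraries in turn), and the replicate block gave 497 higher and 272 lower. The 1 lower member became 0 with a filter of FPKM 5, median ratio rescaling, the replicate block, both forms of summed rows and without any library but Nex_cKO replicate 2, and was 1 without that library, which was then the Jag2 row in place of Dll1. The 1 lower pathway gene became 0 with a filter of FPKM 5, median ratio rescaling, no intensity trend, quantile normalization, the replicate block and summed rows, and 0 to 3 with a library left out (3 without Nex_cKO replicate 2, 2 without Nex_cKO replicate 3). Pathway genes called higher numbered 1 with quantile normalization and 0 to 1 with a library left out. The Camk2a model called 5 higher rows with no intensity trend, 1 with a filter of FPKM 5 and 1 with robust moderation, no member among them. Deviations of same-numbered libraries correlated at 0.02, -0.10 and -0.10 (Nex) and 0.05 (Camk2a, where 2 libraries a group force both pairs to the same value), so the numbers were not taken as pairs, and no Nex_cKO library correlated best with its own number. The causes were not tested. In the 3-month libraries Dll1 rested on 28 to 70 reads and Mfng on 31 to 54, which limits what their values can show.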
